A study of Arabidopsis thaliana with 16 samples.

Results

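Whole Arabidopsis seedlings exposed to 25 mM hydrogen peroxide (H2O2) were compared with seedlings given none, over all genes on an Affymetrix array. The comparison takes 8 of the 16 arrays of the series: 2 at 25 mM and 6 at 0 mM. All seedlings were wild type of ecotype Col, 12 days old, grown in liquid medium and moved to darkness 1 h before treatment. H2O2 was given for 30 min and stayed in the medium while the seedlings received 1 µM epi-brassinolide (BL), a growth-promoting steroid hormone, or its ethanol solvent for another 1 h in the dark. At 25 mM there was 1 array with solvent and 1 with BL, and at 0 mM there were 3 of each, called solvent controls 1 to 3 and BL controls 1 to 3. Every group was therefore dark-treated, and solvent or BL was present in all of them. The labels number the replicates without saying whether they were separate cultures, so the p-values reflect only how far these arrays differ, which may be technical.

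H2O2 is produced in chloroplasts, mitochondria and peroxisomes and acts both as a signal and as a damaging oxidant. Plant cells answer it with enzymes that conjugate or reduce oxidized and reactive molecules, with protein chaperones and with calcium-linked signalling proteins. Chloroplasts carry their own genome, which encodes subunits of the photosynthetic complexes and part of the machinery for their expression.

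The values are log2 signals per probe set, and a change is the log2 value at 25 mM minus that at 0 mM with BL as an additive term. A probe set was tested when it reached 5 on at least 2 of the 8 arrays, and a call means a limma p under 0.05 after Benjamini-Hochberg adjustment. The 25 mM arrays correlated with each other at 0.993 over the tested probe sets and with the 0 mM arrays at 0.863 to 0.929. Solvent control 3 stood apart from its group, with correlations of 0.811 to 0.905 to the other 0 mM arrays, which correlated among themselves at 0.956 to 0.990. Each main count is therefore also given without it. The probe sets have no gene in the annotation in 5732 of the 12934 cases tested, 1 gene in 6911 and several in 291. The array's control genes gave a mean 3′ minus 5′ log2 signal of 0.51 and 0.53 on the 25 mM arrays and 0.15 to 0.45 on the 0 mM arrays, a difference of 0.20 (exact two-sided permutation test over 28 groupings, p = 0.0714, where 0.0357 is the smallest possible). The part of this measure in the results was not tested.

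At 25 mM, 608 of 12934 probe sets were called (4.70%), of which 390 rose (3.02%) and 218 fell (1.69%). A rise of at least 1 was found in 314 and a fall of at least 1 in 139. Rises of at least 3 numbered 50, against 7 falls of that size. The median change over all tested probe sets was -0.05. In all 608 the arrays of both doses did not overlap, as was true of 3764 tested probe sets (29.1%), called or not. Among the called rises, 49 stayed under 5 on all 6 arrays at 0 mM and so passed the filter only through the 25 mM arrays, and 33 called falls passed only through the 0 mM arrays. Such probe sets had to differ to be tested. Among the genes described below, the rises of this kind include GSTU25, UGT73B4, CML37, BGLU28, CYP71B36, EXLA2, AT4G27657 and AT2G14160. The falls of this kind include AT4G26010, AT1G47400 and AT4G26460. Their values are given as a description without a test of the change against 0 mM. Genes are ranked only among probe sets with 1 gene. Of the 7 called falls of at least 3, 5 belong to probe sets without 1 gene, as do 5 of the 7 called rises of at least 5.

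The count rested on single arrays. Without solvent control 3, 3422 of 12837 probe sets were called (26.7%), with 1654 rises (12.9%) and 1768 falls (13.8%), and these included all 608 with the same direction. Without solvent control 1 the count was 154, and without BL control 1, 2 or 3 it was 158, 143 or 203. Without either of the 25 mM arrays 1 probe set was called, and it was that of GT72B1 both times.

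**Figure D1:**
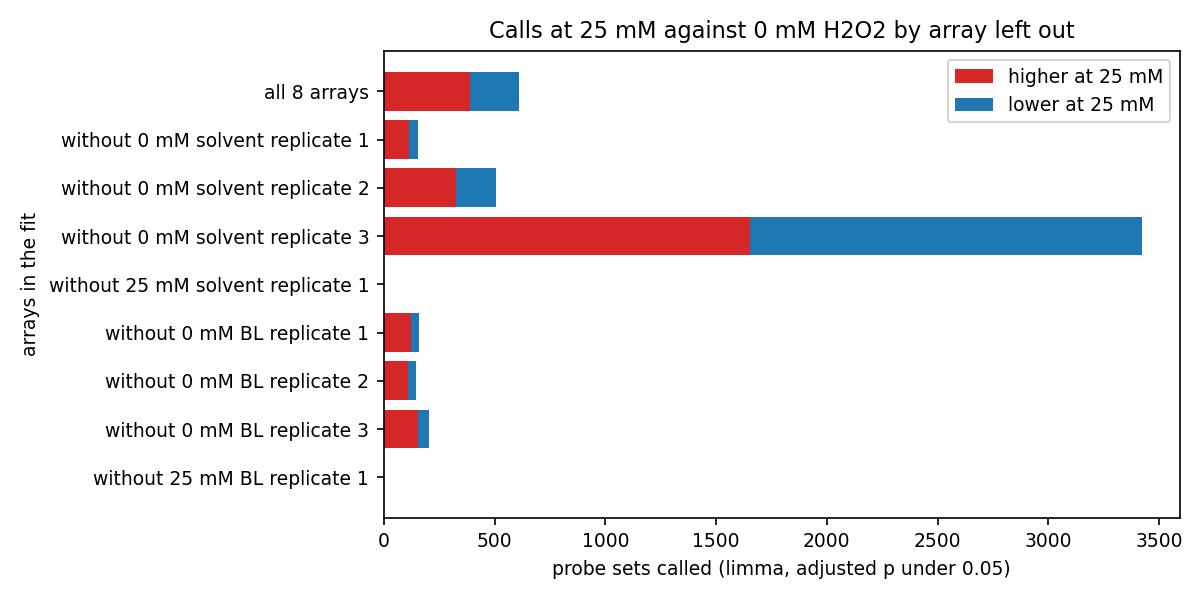
Number of probe sets called at 25 mM against 0 mM H2O2 (x axis) with all 8 arrays and with each array left out (y axis), split into higher (red) and lower (blue) at 25 mM. The count is 608 with all arrays, 3422 without solvent control 3 and 1 without either array at 25 mM.

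Among probe sets with 1 gene the largest rise belonged to GSTU25, a glutathione S-transferase of the tau class, which joins glutathione to reactive molecules. Its log2 signal was 2.12, 2.58 and 2.58 in solvent controls 1 to 3 and 2.28, 2.12 and 2.26 in BL controls 1 to 3, close to the lowest value in the table, 2.12. At 25 mM it was 8.07 with solvent and 8.32 with BL, far above every control. The difference of 5.87 is set in part by the lowest value the table holds. GSTU25 passed the filter only through the 25 mM arrays. It was the only 1 of 7 tested glutathione S-transferases called, where 4.70% of all tested probe sets were called. The others ranged from -0.83 for GSTU20 to 1.00 for GSTU26, and the list median was 0.50.

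UDP-glycosyltransferases, which attach sugars to small molecules such as hormones, phenolics and foreign compounds, gave 6 called rises and no called fall among 29 tested genes, where 3.02% of all tested probe sets rose and 1.69% fell. One of the 6, UGT73B4, passed the filter only through the 25 mM arrays. The called members were UGT73B4 (5.00), GT72B1 (4.14), UGT73B5 (4.01), UGT85A5 (1.88), UGT76E11 (1.27) and UGT73B1 (0.86), while the list median was 0.33. GT72B1, also known as UGT72B1, read 7.15, 7.18 and 6.99 in the solvent controls, 6.65, 6.27 and 6.32 in the BL controls, and 10.87 and 10.93 at 25 mM. Its control values were well above the lowest value and its groups lay far apart, with a change of 4.14 ± 0.21 (SE, limma adjusted p = 0.00035). UGT73B5 varied more among controls, from 4.59 in BL control 3 to 8.97 in solvent control 3, against 10.22 on each 25 mM array, and its change of 4.01 ± 0.80 had an adjusted p of 0.040 in limma. Without solvent control 3 the family had 10 rises and 4 falls of 29, where 12.9% and 13.8% of all tested probe sets were called, the falls being UGT71C5, UGT72E1, UGT84A3 and UGT71C1.

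MSRB6 and MSRB5 belong to the methionine sulfoxide reductases, which return oxidized methionine to methionine. Both were called as rises, 2 of 5 tested members, where 3.02% of all tested probe sets rose. MSRB6 rose by 2.67 ± 0.44 (SE, limma adjusted p = 0.022) from values between 5.23 and 7.09 to 8.95 and 9.37. MSRB5 rose by 1.06 and the other members lay between -0.47 and 0.34. AOR, an oxidoreductase for reactive alkenals, rose by 0.87. None of the 6 tested antioxidant enzymes on the list was called with all 8 arrays, with a median of -0.01 and values from -0.69 for the ascorbate peroxidase SAPX to 0.66 for ATMDAR2. Without solvent control 3, ATMDAR2 and the glutathione reductase GR1 rose and SAPX fell. In that fit 12.9% of all tested probe sets were called as rises and 13.8% as falls, against 3.02% and 1.69% with all 8 arrays.

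Of the heat shock list, 2 of 12 tested genes were called, both as rises, where 3.02% of all tested probe sets rose. The median change of the list was 1.90. Fes1A, a partner of the Hsp70 chaperones, read 7.49, 6.93 and 8.30 in the solvent controls, 8.24, 8.54 and 8.77 in the BL controls and 10.15 and 10.69 at 25 mM. It rose by 2.37 ± 0.35 (SE, limma adjusted p = 0.017). AT1G52560, placed in the list by its locus from general knowledge, rose by 4.02 ± 0.67 (SE, limma adjusted p = 0.024). Its controls were uneven, with 2.72 to 4.64 on the solvent arrays and 4.83 to 6.26 on the BL arrays. The mean level of the 12 genes showed the same split at 0 mM, where the BL arrays stood at 8.93, 9.31 and 9.32 and the solvent arrays at 7.14, 6.83 and 8.40, below 10.07 and 10.31 at 25 mM. Without solvent control 3, 11 of the 12 rose and AT4G21870 fell, in a fit that called 12.9% of all tested probe sets as rises and 13.8% as falls.

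Calcium-linked proteins moved in both directions. CML37, a calmodulin-like protein, read 2.16 to 2.76 on the 6 control arrays, near the lowest value in the table, and 6.71 on each 25 mM array. CML41 fell by 1.23, and the median of the 7 tested calmodulin-like genes was -0.51 with all arrays and -0.26 without solvent control 3. Of the 3 tested stress transcription factors none was called, where 4.70% of all tested probe sets were called. Their median change was -0.66 and the lowest -0.79, and only STZ had a positive change. STZ (ZAT10), a zinc finger repressor, read 9.04, 7.38 and 11.07 in the solvent controls, 6.64, 6.43 and 6.67 in the BL controls and 10.91 and 10.96 at 25 mM. Solvent control 3 thus lay above the 25 mM arrays. Its change was 3.06 with all arrays (limma adjusted p = 0.117) and 3.59 without solvent control 3 (limma adjusted p = 0.00268).

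Other called rises included BGLU28, a beta-glucosidase, which went from 2.12 to 2.30 on the control arrays to 5.91 and 6.05. Its controls lay at or near the lowest value in the table, so that it passed the filter only through the 25 mM arrays. OCT5, an organic cation transporter, rose by 2.03. LTI30, a dehydrin that accumulates on cold and drying, rose by 1.88. ATG8E, a ubiquitin-like protein of autophagosomes, rose by 1.33. It was the only 1 of 8 tested autophagy genes called, where 4.70% of all tested probe sets were called. UPB1 (UPBEAT1), a transcription factor known from the balance of reactive oxygen in roots, rose by 1.79. The cell wall list held opposite calls: the expansin-like EXLA2 and EXLA1 rose by 1.76 and 1.72, and the expansin EXPA16 fell by 2.53, among 7 tested genes. Of all tested probe sets 3.02% were called as rises and 1.69% as falls. EXLA2 passed the filter only through the 25 mM arrays. Of 11 tested cytochromes P450 only CYP71B36 was called, with a rise of 2.37, where 4.70% of all tested probe sets were called. CYP71B36 passed the filter only through the 25 mM arrays.

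Several lists had no called member with all 8 arrays, where 4.70% of all tested probe sets were called. At that share a list of a few genes often has no call. The 6 tested WRKY factors had a median change of -0.45, the 4 histones -0.43, the 3 proteasome genes -0.29 and the 8 aldehyde dehydrogenases -0.28. The 4 gibberellin genes had a median of -0.02 and the 5 xyloglucan endotransglucosylases 0.30. The 5 genes of the unfolded protein response had a median of -0.30 with all arrays and -0.01 without solvent control 3. Their mean level was 10.40 on solvent control 3 against 8.53 to 8.70 on the other controls and 8.76 and 8.75 at 25 mM. The 4 reference genes, often used to normalize expression, ranged from -0.41 to -0.17. Without solvent control 3, 2 histones, 3 aldehyde dehydrogenases, 2 reference genes and 1 gibberellin gene were called as falls and 1 xyloglucan endotransglucosylase as a rise. That fit called 13.8% of all tested probe sets as falls and 12.9% as rises.

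**Figure D2:**
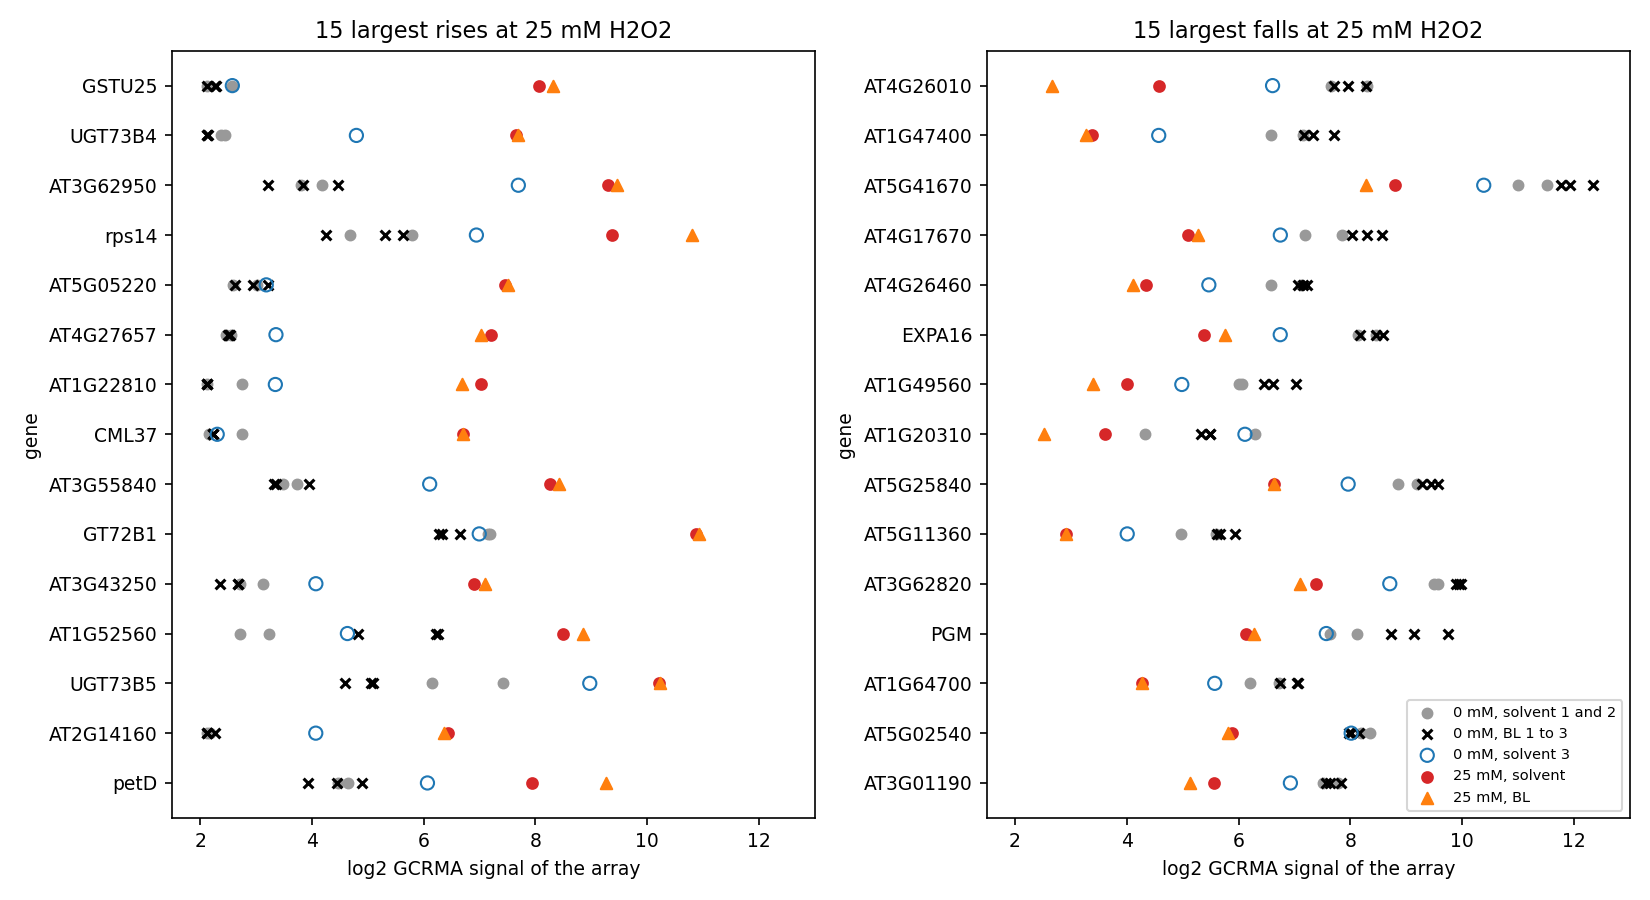
Log2 GCRMA signal (x axis) of the 15 genes with the largest called rises (left) and the 15 with the largest called falls (right) on each of the 8 arrays; grey points are solvent controls 1 and 2, open blue circles solvent control 3, crosses the BL controls, red circles 25 mM with solvent and orange triangles 25 mM with BL. For UGT73B5 solvent control 3 stands at 8.97, nearer to the 25 mM arrays at 10.22 than to BL control 3 at 4.59.

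Among probe sets with 1 gene the largest fall was that of AT4G26010, by 4.13. This gene passed the filter only through the 0 mM arrays. Its signal was 7.66, 8.30 and 6.61 in the solvent controls, 8.29, 7.96 and 7.71 in the BL controls, and 4.59 with solvent and 2.66 with BL at 25 mM. The 25 mM arrays were far apart here, whereas their median absolute difference over all tested probe sets was 0.13. Next among these came AT1G47400 (-3.43), AT5G41670 (-2.95), AT4G17670 (-2.59) and AT4G26460 (-2.55), which carry only locus identifiers in the tables used. AT1G47400 and AT4G26460 also passed the filter only through the 0 mM arrays, so that their falls are a description. PGM, here the phosphoglycerate/bisphosphoglycerate mutase at AT1G78050, fell by 2.30 from 7.57 to 9.76 on the controls to 6.12 and 6.27.

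FMA (FAMA), a transcription factor that completes guard cell formation, fell by 1.87 ± 0.22 (SE, limma adjusted p = 0.010). Its controls read 7.39, 6.99, 6.74, 7.30, 7.12 and 7.48 and the 25 mM arrays 5.44 and 5.16, so that the groups were well separated. In whole seedlings fewer cells of a type and less RNA per cell cannot be told apart, and FMA was the only 1 of 3 guard cell markers tested. CHX20, a cation exchanger of guard cells that was chosen after its value was seen, fell by 1.27. SWEET10, a sugar transporter, fell by 1.81, with 6.46 to 7.05 on the controls, 5.85 with solvent and 4.03 with BL at 25 mM. Of 7 tested tubulins none was called with all arrays and 4 fell without solvent control 3, namely TUA6, TUA1, TUB1 and TUB9, by 0.57 to 1.01. The fit without solvent control 3 called 13.8% of all tested probe sets as falls, and that with all arrays 1.69%. The lists of tubulins, plastid genes, methionine sulfoxide reductases, beta-glucosidases, aldehyde dehydrogenases and SWEET transporters were written after values had been seen.

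Plastid-encoded genes held calls in both directions: 12 of 69 rose and 3 fell, which is 21.7% against 4.70% of all tested probe sets, with a median change of -0.04 beside -0.05 over all. Genes for the plastid gene expression machinery were among the rises, with 4 of 15 ribosomal proteins (rps14, rps15, rps16 and rpl20) and 2 of 4 RNA polymerase subunits (rpoB and rpoC2). The cytochrome b6f genes petD and petN rose, 2 of 6. The photosystem genes were split, with psaC, psbN and psbT called as rises and psbE and psbF as falls among 20. In the NDH complex, which cycles electrons around photosystem I, ndhG rose and ndhA fell among 10. None of the 6 ATP synthase genes was called.

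The rps14 signal was 4.69, 5.79 and 6.94 in the solvent controls, 5.64, 5.30 and 4.24 in the BL controls, and 9.37 with solvent and 10.81 with BL at 25 mM. Its rise of 4.66 ± 0.72 (SE, limma adjusted p = 0.019) exceeded the spread of the controls. The psbE signal, for a subunit of cytochrome b559 of photosystem II, was between 12.62 and 12.88 on all 6 controls and 11.53 and 11.04 at 25 mM, a fall of 1.49 ± 0.17 (SE, limma adjusted p = 0.0089). The 12 genes that rose had mean control levels from 4.75 to 9.28, whereas the 3 that fell lay between 12.57 and 14.14. Levels of different probe sets are given here as signals and do not rank the transcripts. All 12 rises were higher with BL than with solvent at 25 mM, by 0.59 to 1.62, and all 3 falls were lower with BL. Of the 54 plastid genes that were not called, 45 were also higher with BL, with a median of 0.35 over the 54. That difference rests on 1 array of each kind, and the smallest adjusted p of the interaction with BL among them was 0.953 in limma. Without solvent control 3, 15 plastid genes rose and 13 fell, the added falls including psaA, psbD, psbC, psbH and atpB, where 12.9% of all tested probe sets rose and 13.8% fell.

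**Figure D3:**
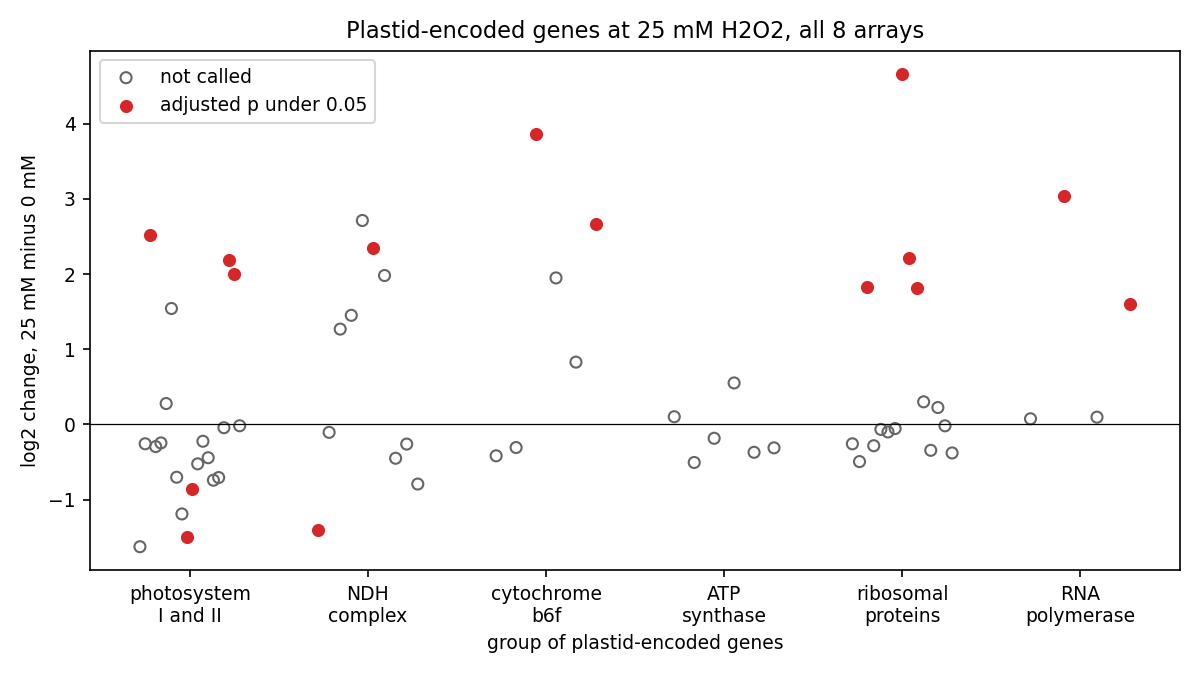
Log2 change at 25 mM against 0 mM H2O2 (y axis) of plastid-encoded genes grouped by the complex they belong to (x axis); each point is 1 gene in the fit to all 8 arrays and filled red points were called. The rises reach 4.66 for rps14, and the called falls are psbE, psbF and ndhA.

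Whether the 25 mM change depended on BL was tested as an interaction. limma called 0 of 12934 probe sets, with 186 at an unadjusted p under 0.05 and a smallest adjusted p of 0.953. The median standard error of the interaction was 0.47, so that differences of moderate size were not detectable with 1 array per state at 25 mM.

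Values at the neighbouring doses come from the 10 arrays with H2O2, which leave out the controls. Against 5 mM, 554 of 12732 probe sets were called (4.35%), with 246 higher (1.93%) and 308 lower (2.42%) at 25 mM. Without the BL array of either dose the count was 0, and without the solvent array of 5 or 25 mM it was 140 or 138. In a fit to all 16 arrays it was 15. DLAH, an acylhydrolase, was lower at 25 mM by 2.51, with 4.93 and 4.96 against 7.38 and 7.53 at 5 mM. Of the arrays compared, only those at 5 mM reached the filter level of 5, so this change is given as a description. AT1G07160 was lower by 2.51 as well, followed by AT4G17250, AT4G20000 and AT1G51920. Higher at 25 mM were AT2G21560 (2.15), AT2G07721 (2.12), AT3G62040 (1.98), AT5G10580 (1.79) and the linker histone gene HIS1-3 (1.79). HIS1-3 read 9.14 and 9.65 at 25 mM and 7.85 and 7.35 at 5 mM, while the controls other than solvent control 3 read 9.28 to 9.72. Its change against 0 mM was 0.24 with all arrays (limma adjusted p = 0.831), a fit that includes solvent control 3, which read below the other controls.

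Several genes that had risen against 0 mM were lower at 25 mM than at 5 mM. GSTU25 was lower by 0.95, CML37 by 1.33, OCT5 by 1.47, GT72B1 by 0.81 and UGT73B5 by 0.87. Of the 390 called rises, 41 were lower at 25 mM than at 5 mM and 12 higher, where 2.42% of all tested probe sets were lower and 1.93% higher. On the heat shock list 5 of 12 genes were lower than at 5 mM and none was higher, beside the same shares of all tested probe sets. The mean level of the list was 12.09 at 1 mM, 11.19 at 5 mM, 9.92 at 50 mM and 9.56 at 100 mM. The plastid genes that rose had a median level of 7.94 at 1 mM, 9.12 at 5 mM, 10.21 at 25 mM, 10.40 at 50 mM and 11.11 at 100 mM. Only rpl20 among the 69 plastid genes differed from 5 mM by the test, being higher by 0.87, where 4.35% of all tested probe sets were called.

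**Figure D4:**
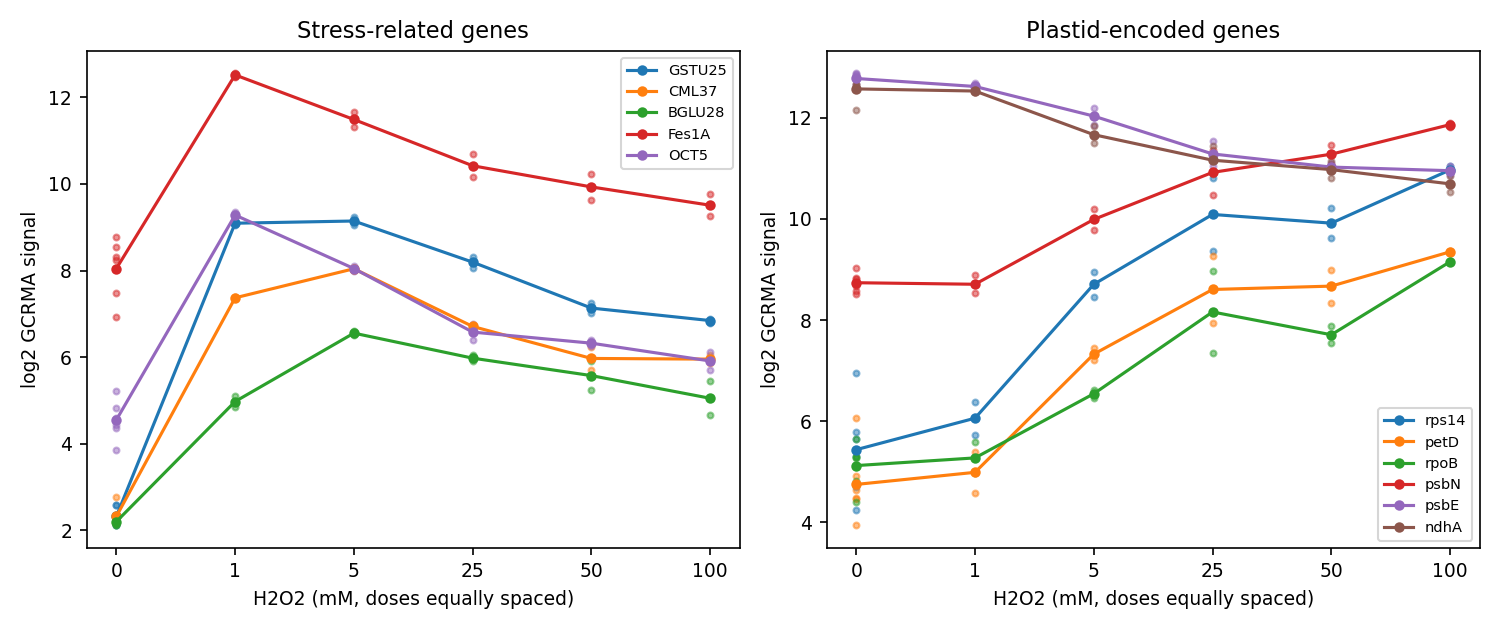
Log2 GCRMA signal (y axis) against H2O2 dose in mM (x axis, doses equally spaced) for stress-related genes (left) and plastid-encoded genes (right); lines join the means per dose and small points are single arrays, 6 at 0 mM and 2 at each other dose. GSTU25 is at 9.09 at 1 mM and 8.07 and 8.32 at 25 mM, whereas psbE is at 12.62 at 1 mM and 11.53 and 11.04 at 25 mM.

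Against 50 mM, limma called 0 of 12732 probe sets, with 490 at an unadjusted p under 0.05 and a smallest adjusted p of 0.0703. The median size of the difference was 0.10, and it reached 1 in 19 probe sets. GSTU25 was at 8.07 and 8.32 at 25 mM and at 7.01 and 7.25 at 50 mM, a difference of 1.06 ± 0.12 (SE) that missed the threshold. The cinnamoyl-CoA reductase gene CCR2 differed by 0.92 ± 0.10 (SE) and also missed it.

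Leaving out solvent control 3 added 2814 calls, 1264 rises and 1550 falls. Solvent control 3 was the highest control array in 816 of these rises and the lowest in 1200 of these falls. Among the calls with all arrays it was the highest in 145 of 390 rises and the lowest in 102 of 218 falls. Probe sets gained by leaving an array out tend to be those in which it lay toward 25 mM, so these counts are no test of that array. CCR2, an enzyme of the phenylpropanoid pathway, read 4.85, 3.27 and 10.25 in the solvent controls, 3.58, 3.26 and 3.38 in the BL controls, and 8.40 and 8.17 at 25 mM. Its change was 3.52 with all arrays (limma adjusted p = 0.264) and 4.56 without solvent control 3. In the second fit CCR2 passed the filter only through the 25 mM arrays, so that its change there is a description. GRX480, a glutaredoxin, went from 4.09 (limma adjusted p = 0.0555) to 4.67. It likewise passed the filter of the second fit only through the 25 mM arrays. MYR2 fell by 3.58 without solvent control 3 and passed the filter only through the 0 mM arrays. Its signal of 2.96 in solvent control 3 lay near the 2.55 of the 25 mM arrays and below the 5.89 to 6.48 of the other controls.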

How the data were processed

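The authors deposited log2 signals per probe set, which the submitters' processing notes credit to GCRMA, with neither version nor settings. These values were used without further scaling. The table held 22810 entries, of which 64 control probe sets were set aside. All deposited columns were used. Symbols came from the platform annotation, updated through a RefSeq table of TAIR10.1 for names only: 13513 probe sets had 1 gene, 503 several and 8730 none, and 13436 of the first matched. Product roles are general background.

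Fits used limma 3.58.1 in R 4.3.3 (lmFit, eBayes), with 5 residual degrees of freedom for 25 against 0 mM and 4 for the interaction and the dose contrasts; the procedure was tested on simulated data. Named genes are the called genes with the 15 largest rises and 15 largest falls (probe sets of 1 gene, groups not overlapping), members of lists with at least 3 tested genes, and the 5 largest each way against another dose. Other genes with a symbol, such as UPB1, CHX20, AOR, OCT5, MYR2 and CCR2, were chosen after their values were seen. The groups and lists were chosen with earlier results of these data known. Arrays have no read depth, and their number limits the precision. A planned search of promoters was not run, since no sequences were used here.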

Additional observations from a re-analysis of the deposited data

Results flagged for a closer look

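Among the 6 arrays at 0 mM, 31 items were examined for a single outlying array, the 30 named genes and the control-gene difference, and 10 stood out by Dixon's test. Chance flags about 1 in 20 independent groups. These items share the same 6 arrays, and the genes were chosen by their values, so that this rate gives no expected count here. Solvent control 3 was the outlying array in 9 of the 10. It was the highest for UGT73B4 at 4.80 (next 2.45), AT3G62950 at 7.69 (next 4.47), AT4G27657 at 3.36 (next 2.55), AT3G55840 at 6.11 (next 3.94) and AT2G14160 at 4.07 (next 2.26). It was the lowest for AT1G47400 at 4.57 (next 6.58), AT4G26460 at 5.47 (next 6.59), EXPA16 at 6.75 (next 8.15) and AT3G01190 at 6.93 (next 7.51). For CML37 solvent control 2 was highest at 2.76 (next 2.31).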

How the results depend on the processing

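The count of 608 moved to 2083 with all 16 arrays, 4036 in a fit to the 12 arrays numbered 1, which adds the other doses and drops 4 controls at once, 3035 with array weights, 11 with the replicate block and 296 with 1 probe set per gene, which tests fewer. Leaving out 1 array gave 1 to 3422. Leaving out solvent controls 1 and 3 together, a setting added after seeing the data, gave 4009. The correlations gave no ground for it, since solvent control 1 correlated at 0.956 to 0.962 with the other 4 controls and at 0.905 with solvent control 3. The share of rises among the calls was 64.1% as reported, 51.7% with all 16 arrays and 48.8% with array weights, and 55.2% with quantile normalization. Both 25 mM arrays carry number 1, so that a replicate block in effect compares them with the controls numbered 1 only. The labels do not say whether the numbers mark separate experiments, so a difference between such sets cannot be told apart from dose. The replicate block left 11 calls, all rises, and none for the interaction. The interaction count was 0 without any 1 of the control arrays and 226 without a filter, of which 222 fail the filter. Against 5 mM the 554 calls became 22 without a filter and 15 with all 16 arrays, and 0 to 140 with 1 array left out. Against 50 mM the 0 calls became 1 without a filter, 4 with the filter at 7 and 0 to 1 with 1 array left out. The control-gene difference was 0.25 with the older control probe sets (exact permutation p = 0.0357), an alternative added after seeing the data, and 0.16 to 0.22 with 1 array left out. Where tested, none of the 30 named genes changed direction; 24 of 30 lost their call with the replicate block, 15 of 30 without a filter and 3 to 17 of 30 without a control array other than solvent control 3. Without either 25 mM array only 22 passed the filter, and 21 of these lost their call. Except where stated, the cause was not tested.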
